A study of Bos taurus
Mus musculus with 10 samples.

Results

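The genes described are 8 Wnt ligand genes (WNT2, WNT3, WNT4, WNT5A, WNT5B, WNT6, WNT10B and WNT11) and the 2 genes that make a Wnt protein fit for release, WLS and PORCN, each read in 2 species that shared a well. They were taken by symbol among 27590 rows of the bovine table and by NCBI gene ID among 31349 rows of the mouse table, 10 genes in each, and all 20 were listed. Each of the 10 wells held bovine embryonic stem cells on mouse embryonic fibroblast feeders. Lines bESC1, bESC2, bESC4, bESC8 and bESC11, labelled wild type (WT) and derived from blastocysts of day 7.5, were each divided over 2 wells. In the IWRR group (5 wells) the medium, mTeSR1, lacked IWR-1 for 1 day, and in the IWR group (5 wells) it kept 2.5 µM IWR-1. All wells had been grown with IWR-1 before, and all feeders came from CD-1 mouse fetuses at E13.5 and had been treated with mitomycin C, which stops division. Each line gave 1 well per medium, so the spread between lines also holds the difference between wells.

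Wnt proteins are lipid-modified in the endoplasmic reticulum by the acyltransferase PORCN and carried to the cell surface by the membrane protein WLS, also called Wntless or GPR177. Without either step Wnt proteins are not released in active form, whichever ligand is made. Outside the cell they bind Frizzled receptors and act on near neighbours; some ligands mainly stabilise beta-catenin in the receiving cell and others, such as WNT5A and WNT11, mainly act by routes that do not need it. IWR-1 inhibits tankyrases and so stabilises AXIN in the receiving cell, which dampens the beta-catenin route downstream of the ligands. In the mouse, Wls has itself been described as a gene that Wnt signalling raises.

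The libraries held 48064953 to 64345738 bovine and 17101894 to 35223039 mouse reads, and values below are normalised reads, the reads of a gene divided by a factor for its library. The mouse genes made up 21.2% to 42.3% of the assigned reads of a well. That share averaged 26.8% ± 8.45 in IWRR wells and 30.4% ± 7.57 in IWR wells (SD, n = 5 each) and was lower in IWRR in 5 of 5 lines (exact two-sided sign-flip permutation test, p = 0.0625, the smallest that 5 lines allow). In the bovine table all 10 stem cell markers were present, among them POU5F1 at 18294 to 62019 normalised reads over the 10 wells. Line 4 stood apart in both media: 11 of 13 fibroblast and mesenchyme markers were highest in it, and their summed level there was 136875 in IWRR and 123595 in IWR, against 12660 to 43920 in IWRR and 10334 to 31619 in IWR in the other lines. Of these markers, POSTN was at 0 to 19.5 outside line 4. The mouse cells could not be checked against markers, because mouse IDs other than those of the 10 genes were not paired with names here.

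Bovine WLS, the Wnt carrier, rose without IWR-1 in every line. In IWRR wells it stood at 180, 123, 14851, 378 and 926 normalised reads in lines 1, 2, 4, 8 and 11, against 47.6, 66.2, 10729, 128 and 263 in the IWR wells of the same lines. The groups overlapped because the lines differed by far more than the media, but within each line the IWRR well was the higher one, as for 6.2% of all tested bovine genes. The ratio of IWRR to IWR was largest in line 1 (3.79) and line 11 (3.52), then 2.96 in line 8, 1.86 in line 2 and 1.38 in line 4. With the line as a block the log2 fold change was 1.32 ± 0.19 SE (limma adjusted p = 0.0131 over 18506 tested bovine genes).

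Of all tested bovine genes 0.951% were called in this comparison at an adjusted p under 0.05, 0.886% as higher and 0.0648% as lower. WLS was the 1 of the 6 tested bovine members that was called. The median log2 fold change of those 6 was 0.17, against -0.00 over all tested genes. Without line 1 or line 11 the call for WLS ended (adjusted p = 0.0728 and 0.0738), and without line 4 it did not (log2 fold change 1.54, adjusted p = 0.00684). When each well's mouse share entered the fit as a covariate, the log2 fold change was 0.77 ± 0.37 SE and no bovine gene was called. That share was lower in IWRR in 5 of 5 lines, so this fit cannot cleanly separate it from the medium. The SE of WLS was 0.19 without the covariate.

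The low end of WLS rests on few reads. In IWR wells of lines 1, 2, 8 and 11 there were 47, 63, 138 and 271 bovine WLS reads, beside 8594, 13146, 8015 and 15873 mouse Wls reads in the same wells. The handling of reads alignable to either genome is not described by any source used here, and its part in these values was not tested. In those lines the mouse Wls level without IWR-1 was 1.14 to 1.18 times that with it, while the bovine level was 1.86 to 3.79 times that with it. The summed level of the bovine fibroblast and mesenchyme markers was also higher without IWR-1 in 5 of 5 lines, by ratios of 1.06 to 1.52. Of the 13 markers 9 had a positive log2 fold change, and the median was 0.17. PDGFRB was at 0.56 ± 0.12 SE (limma adjusted p = 0.0613) and COL1A1 at 0.36 ± 0.08 (adjusted p = 0.0711). COL1A1 had the largest mean of the 13, 23899 normalised reads in IWRR and 18931 in IWR wells, and so weighed most in the sum. COL1A2 was at -0.30 ± 0.10 (limma adjusted p = 0.299). Limma called 0 of 13, and DESeq2 called 2 as higher. The sum over the stem cell markers had ratios of 0.930 to 0.990. However, 5 of the 10 had a positive log2 fold change, and the median was 0.01. Limma called 1 of them, NANOG, as higher (0.33 ± 0.06 SE, adjusted p = 0.0411). DNMT3B, at a mean of 36481 normalised reads in IWRR and 43390 in IWR wells, was at -0.27 ± 0.07 (limma adjusted p = 0.107). The part of either marker list in the WLS result was not tested.

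**Figure D1:**
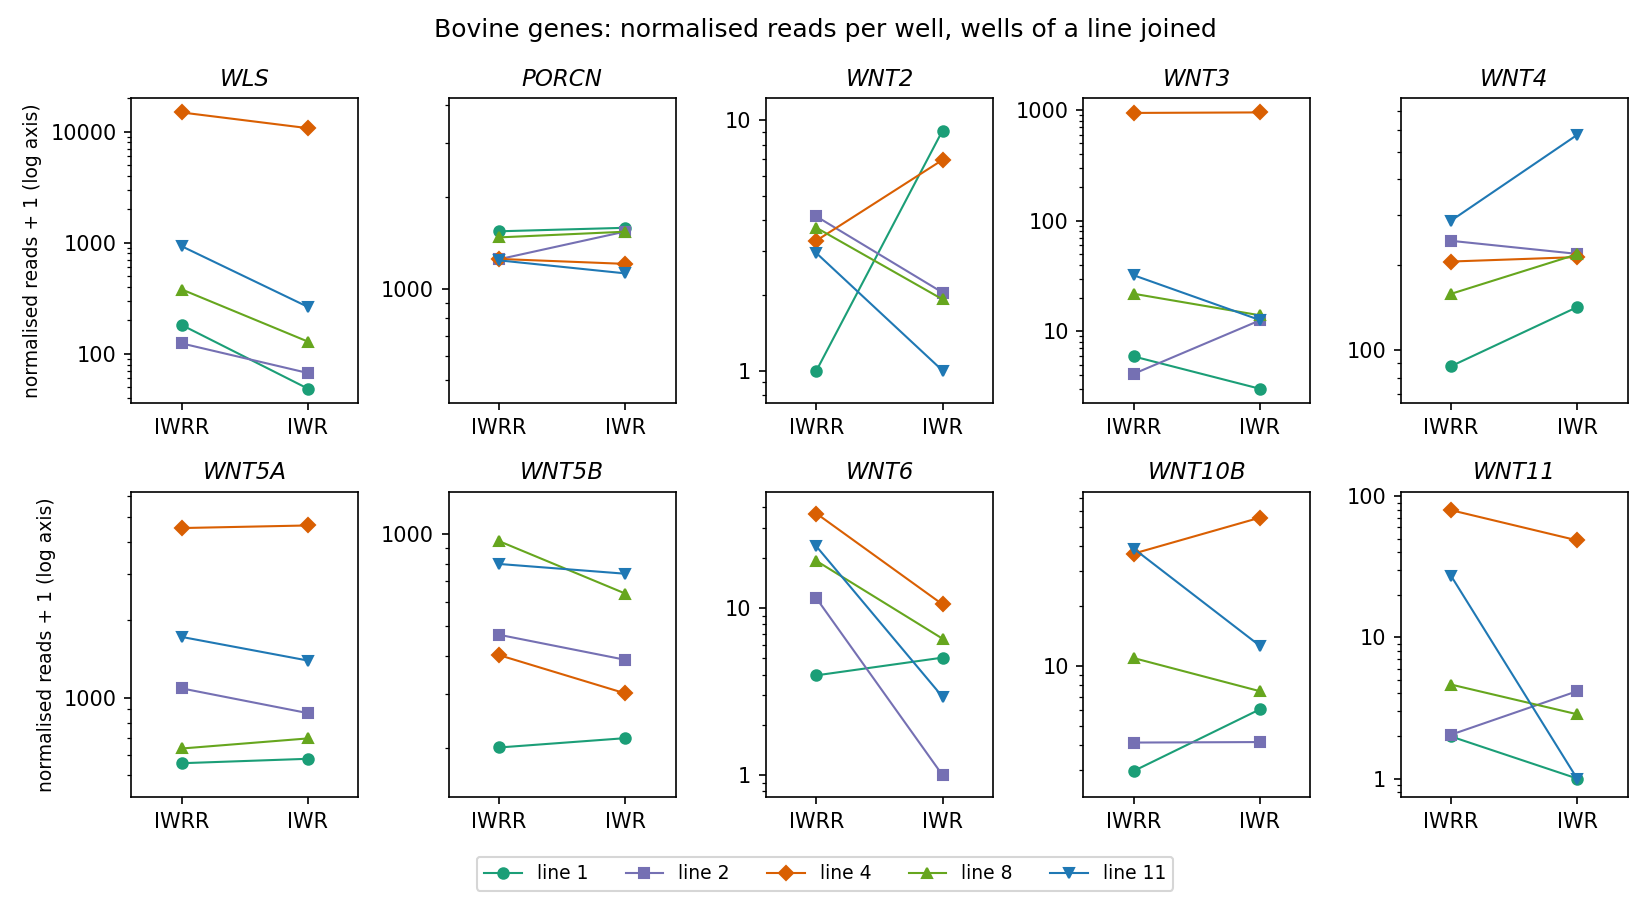
Normalised reads + 1 of the 10 bovine genes (log axis, with its own range in each panel) in IWRR wells at left and IWR wells at right, with the 2 wells of a line joined. WLS was higher in IWRR in all 5 lines, and line 4 had the highest WLS, WNT3 and WNT5A in both media.

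In the feeders the carrier was present at a high level in every well. Mouse Wls stood at 11191, 14790, 14843, 9550 and 13384 normalised reads in IWRR wells of lines 1, 2, 4, 8 and 11, against 9682, 12919, 14140, 8261 and 11386 in IWR wells. It was higher in IWRR in 5 of 5 lines but by little, with a log2 fold change of 0.18 ± 0.06 SE that was not called (limma adjusted p = 0.127). Of all tested mouse genes, 7.83% were higher in IWRR in all 5 lines.

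The responses of the carrier in both species were then set against each other. The log2 change of mouse Wls minus that of bovine WLS was -1.14 ± 0.25 SE over the 5 lines and negative in each, between -1.69 in line 1 and -0.40 in line 4. The exact two-sided sign-flip permutation test gave p = 0.0625, the smallest that 5 lines allow, or 0.156 adjusted over the 5 gene pairs tested in both tables. The estimate was positive in both species, and the sign-flip test cannot give a p below 0.0625 with 5 lines.

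PORCN, the acyltransferase, was not called in either species. Bovine PORCN stood at 1540, 1247, 1250, 1471 and 1237 normalised reads in IWRR wells of lines 1, 2, 4, 8 and 11, against 1581, 1537, 1204, 1535 and 1121 in IWR wells. It was level across lines, line 4 included, and 2 lines were higher and 3 lower without IWR-1. The log2 fold change was -0.04 ± 0.07 SE (limma adjusted p = 0.942). Mouse Porcn stood at 75.6 to 126 in IWRR wells and 66.7 to 119 in IWR wells, with a log2 fold change of 0.05 ± 0.13 SE (limma adjusted p = 0.913). The difference between the species was 0.09 ± 0.09 SE on the log2 scale (exact sign-flip permutation test, adjusted p = 0.547).

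WNT5A acts largely without beta-catenin, and its mouse ortholog was the member called in the feeders. Mouse Wnt5a stood at 7406, 9158, 7357, 7906 and 6541 normalised reads in IWRR wells of lines 1, 2, 4, 8 and 11, against 6240, 6952, 6086, 7347 and 4636 in IWR wells. The IWRR well was the higher one in 5 of 5 lines, by ratios of 1.08 in line 8 to 1.41 in line 11. The log2 fold change was 0.30 ± 0.07 SE (limma adjusted p = 0.0264 over 15871 tested mouse genes). Of all tested mouse genes 4.19% were called, 2.14% as higher and 2.05% as lower, and Wnt5a was the 1 of 8 tested mouse members that was called. The median log2 fold change of these 8 was 0.10, against -0.00 over all tested mouse genes.

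The call for Wnt5a ended without line 1, 4 or 11 (adjusted p = 0.101, 0.105 and 0.175) and the log2 fold change lay between 0.26 and 0.35 over the 5 fits that leave out 1 line. When each well's mouse share entered the fit as a covariate, it was 0.17 ± 0.16 SE, and no mouse gene was called. The SE was 0.07 without the covariate, and this fit cannot cleanly separate the mouse share from the medium. In a co-culture measured in bulk, fewer cells of a type and less RNA per cell cannot be told apart.

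Bovine WNT5A showed no such call. It stood at 557, 1084, 4526, 635 and 1715 normalised reads in IWRR wells of lines 1, 2, 4, 8 and 11, against 579, 870, 4631, 695 and 1390 in IWR wells. Line 4 was the highest in both media, and 2 of 5 lines were higher without IWR-1. The log2 fold change was 0.08 ± 0.08 SE (limma adjusted p = 0.87). The mouse change exceeded the bovine one in 5 of 5 lines, by 0.22 ± 0.04 SE on the log2 scale (exact sign-flip permutation test, p = 0.0625, adjusted p = 0.156).

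**Figure D2:**
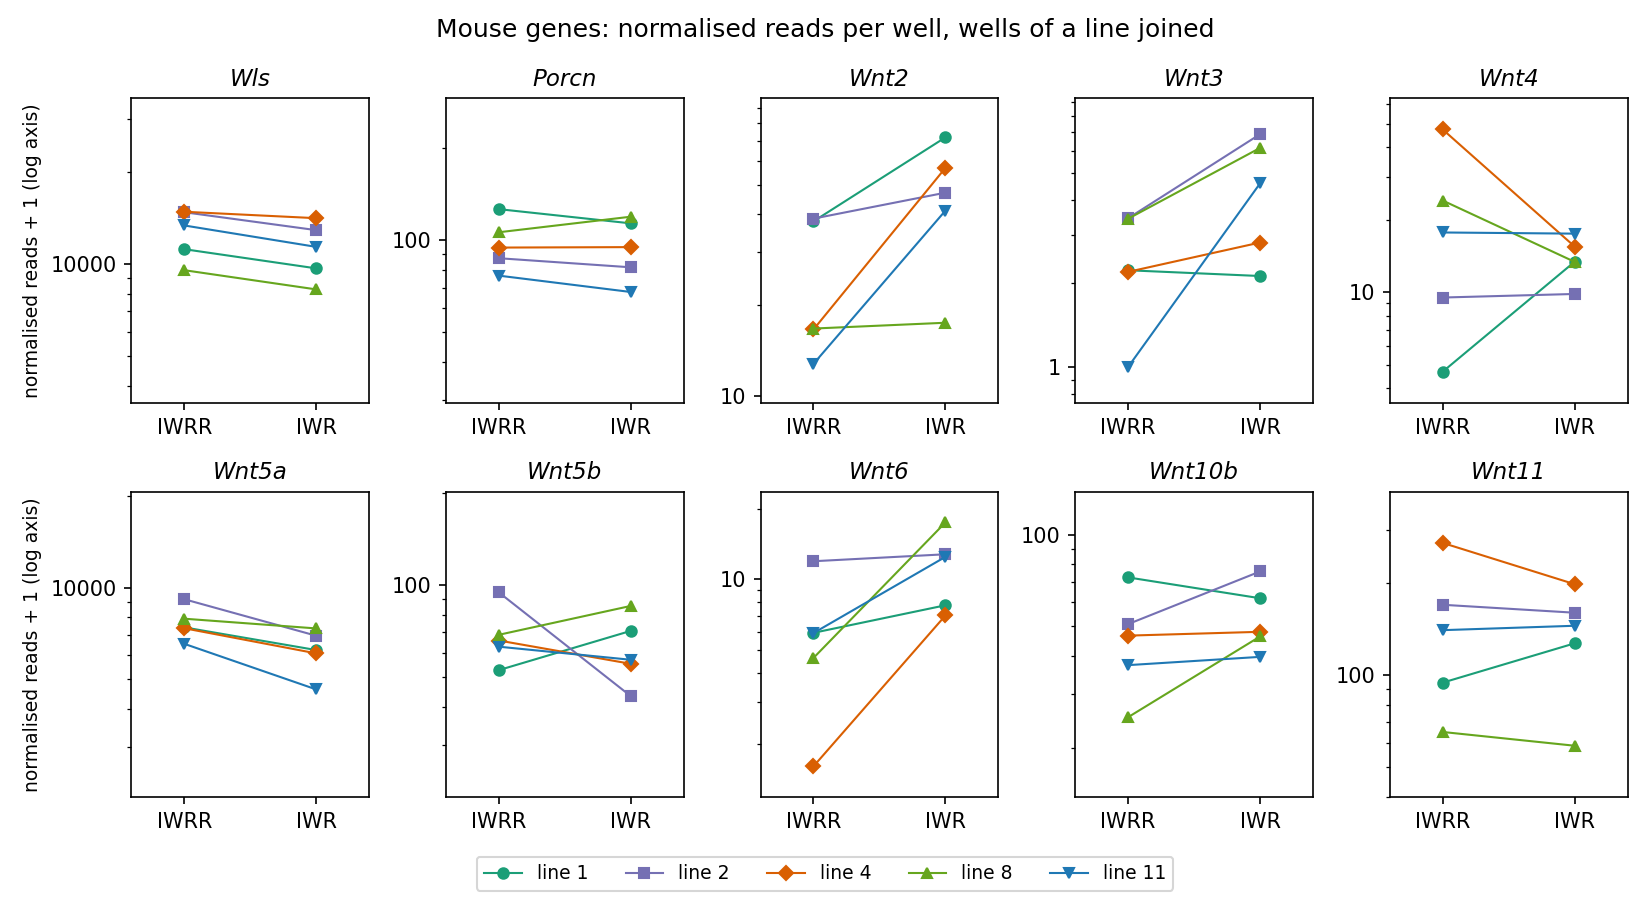
Normalised reads + 1 of the 10 mouse genes (log axis, with its own range in each panel) in IWRR wells at left and IWR wells at right, with the 2 wells of a line joined. Wls and Wnt5a were higher in IWRR in all 5 lines, and Wnt2 was lower in IWRR in all 5.

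Mouse Wnt2, a ligand known for its role in lung development, was lower without IWR-1 in every line. It stood at 36.9, 37.7, 15.6, 15.7 and 11.8 normalised reads in IWRR wells of lines 1, 2, 4, 8 and 11, against 71.0, 46.2, 56.0, 16.5 and 40.2 in IWR wells. As a ratio, the difference was small in line 8 and largest in lines 4 and 11. The log2 fold change of -0.95 ± 0.29 SE was not called by limma (adjusted p = 0.103) and was called by DESeq2 (-1.01, adjusted p = 0.0437). Limma also called it without line 8 (-1.17, adjusted p = 0.03). Leaving out line 1, 2, 4 or 11 instead gave no call (limma adjusted p = 0.264, 0.0721, 0.368 and 0.352). Mouse Wnt2 had 12 to 31 reads per IWRR well and 16 to 93 per IWR well. Of all tested mouse genes, 7.83% were lower in IWRR in all 5 lines. Bovine WNT2 had 0 to 8 reads per well and was not tested.

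WNT4, known from kidney and female reproductive tract development, and WNT5B, the close relative of WNT5A, were present at moderate levels in the bovine table. Bovine WNT4 stood at 86.7, 242, 204, 157 and 285 normalised reads in IWRR wells of lines 1, 2, 4, 8 and 11, against 141, 217, 212, 217 and 573 in IWR wells. The IWRR well was the lower one in 4 of 5 lines, most so in line 11, and the log2 fold change of -0.41 ± 0.16 SE was not called (limma adjusted p = 0.415). Mouse Wnt4 stood at 3.69 to 46.2 in IWRR wells and 8.84 to 16.5 in IWR wells, with no common direction between lines (0.18 ± 0.42 SE, limma adjusted p = 0.902).

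Bovine WNT5B stood at 199, 467, 400.5, 948 and 798 normalised reads in IWRR wells of lines 1, 2, 4, 8 and 11, against 214, 387, 299.9, 638 and 741 in IWR wells. It was higher without IWR-1 in 4 of 5 lines, with line 1 the exception. The log2 fold change was 0.25 ± 0.11 SE (limma adjusted p = 0.45). Mouse Wnt5b stood at 51.7 to 93.7 in IWRR wells and 42.3 to 84.5 in IWR wells, with a log2 fold change of 0.16 ± 0.22 SE (limma adjusted p = 0.817). The mouse change minus the bovine change was -0.10 ± 0.28 SE for WNT5B and 0.59 ± 0.47 SE for WNT4 (exact sign-flip permutation tests, adjusted p = 0.688 and 0.521).

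WNT3, a beta-catenin ligand that mouse embryos need to form the primitive streak, had nearly all of its bovine reads in line 4. It stood at 943 normalised reads in the IWRR well and 953 in the IWR well of line 4, against 3.13 to 31.1 in IWRR wells and 2.02 to 13.0 in IWR wells of the other lines. The log2 fold change over all lines was 0.27 ± 0.39 SE (limma adjusted p = 0.919), with changes in both directions outside line 4. Mouse Wnt3 was at 0 to 2.43 in IWRR wells and 1.13 to 5.90 in IWR wells and fell below the filter of 10 normalised reads in 5 libraries.

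WNT6, WNT10B and WNT11 did not pass that filter in the bovine table, and Wnt6 did not pass it in the mouse table. Bovine WNT6 stood at 2.96, 10.4, 35.8, 18.1 and 22.4 normalised reads in IWRR wells of lines 1, 2, 4, 8 and 11, against 4.05, 0, 9.52, 5.56 and 1.94 in IWR wells. It was higher without IWR-1 in 4 of 5 lines. Mouse Wnt6 stood at 4.92, 10.9, 0.601, 3.63 and 4.91 in the IWRR wells of those lines, against 6.76, 11.8, 6.03, 16.5 and 11.5 in IWR wells, lower in 5 of 5. With no filter on low values, limma gave bovine WNT6 a log2 fold change of 1.90 ± 0.55 SE (adjusted p = 0.332) and mouse Wnt6 one of -1.12 ± 0.46 SE (adjusted p = 0.426). Neither passed the test, and both rest on 0 to 31 reads per well.

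Bovine WNT10B stood at 1.97 to 37.9 normalised reads in IWRR wells and 3.15 to 54.7 in IWR wells. Mouse Wnt10b, known as a brake on fat cell formation, stood at 24.2 to 71.4 in IWRR wells and 38.7 to 74.7 in IWR wells (log2 fold change -0.27 ± 0.21 SE, limma adjusted p = 0.61). Bovine WNT11 was at 78.5 in the IWRR well and 47.6 in the IWR well of line 4, against 0.985 to 26.3 in IWRR wells and 0 to 3.15 in IWR wells of the other lines. In line 11 it had 27 reads in the IWRR well and 0 in the IWR well, and in line 4 it had 68 in the IWRR well and 40 in the IWR well. Mouse Wnt11 stood at 64.1 to 270.2 in IWRR wells and 57.7 to 198 in IWR wells (0.04 ± 0.14 SE, limma adjusted p = 0.939).

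**Figure D3:**
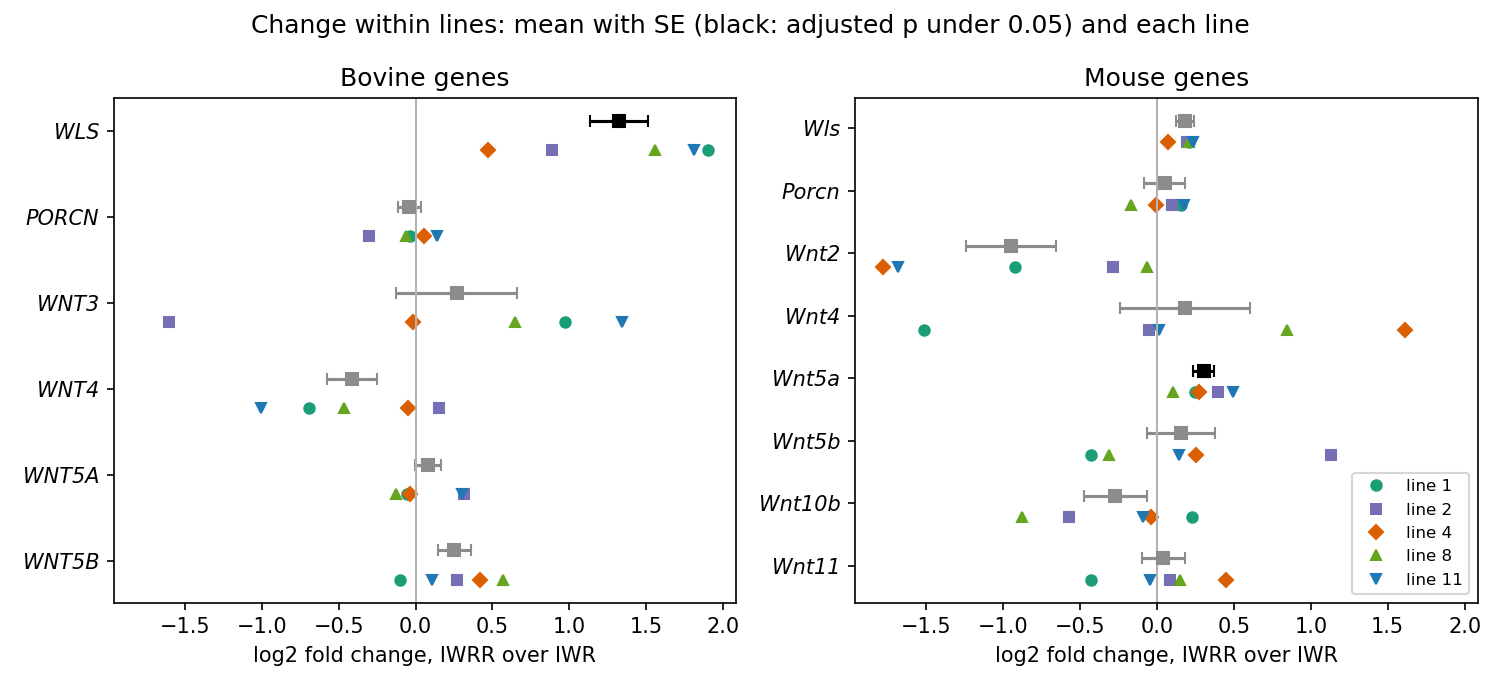
Log2 fold change of IWRR over IWR for the 6 bovine and 8 mouse members that passed the filter, as the limma estimate with its SE (black where the adjusted p was under 0.05) and as the change in each line. Bovine WLS (1.32) and mouse Wnt5a (0.30) are the black points, and the 5 lines lie on the same side of 0 for both.

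Which cells held the transcripts was read from the share of a gene pair's reads that were assigned to the mouse gene. If a pair made up the same fraction of the reads in both species, that share would equal the mouse share of all reads in the well. Transcript lengths were not used, and they can differ between the orthologs, so the shares describe assigned reads and not molecules. Intervals are 95% Wilson intervals, the limit for a count of 0 is 3 reads of the pair's total, and both cover counting error only.

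For WLS, WNT2, WNT5A, WNT10B and WNT11 the mouse gene held more than the well's share in 10 of 10 wells. The mouse share of WLS reads was 65.8% (interval 65.3% to 66.2%) in the IWRR well and 72.2% (71.8% to 72.7%) in the IWR well of line 4, and 93.5% to 99.5% in the wells of the other lines. For WNT5A it was 75.8% in the IWRR well and 72.2% in the IWR well of line 4, and 79.1% to 91.4% elsewhere. WNT2 lay at 81.2% to 100%, WNT10B at 48.7% to 96.7% and WNT11 at 84.0% to 100%. Bovine WNT11 had 0 reads in the IWR wells of lines 1 and 11, beside 112 and 201 mouse Wnt11 reads, which by that limit of 3 reads allows a bovine share of up to 2.68% and 1.49%.

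For PORCN, WNT4 and WNT5B the order was the other way, with the mouse gene below the well's share in 10 of 10 wells. The mouse share of PORCN reads was 12.6% in the IWRR well and 13.4% in the IWR well of line 4 and 5.09% to 7.46% elsewhere. WNT4 lay at 2.93% to 9.90% outside line 4, where it was 30.3% in the IWRR well and 11.9% in the IWR well. WNT5B lay at 5.09% to 26.3%. In line 1 its intervals included the well's share. It was 17.2% (interval 13.0% to 22.4%) against 21.2% in the IWRR well, and 22.7% (18.1% to 28.0%) against 23.4% in the IWR well. Scaled to CPM within each table, which takes the number of reads of each species out, the mouse share averaged 16.2% for PORCN, 16.8% for WNT4 and 29.2% for WNT5B over the 10 wells. The acyltransferase and the carrier thus had most of their reads in different species in every well.

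WNT3 and WNT6 fell on both sides. In line 4 bovine WNT3 had 817 reads in the IWRR well and 801 in the IWR well, beside 2 and 3 mouse reads in these wells. In the other lines the pair had 3 to 32 reads per well, and in the IWRR well of line 11 the mouse gene had 0 of 32, which by the same limit allows a share of up to 9.38%. The mouse share of WNT6 averaged 27.7% ± 23.3 in IWRR wells and 75.4% ± 18.9 in IWR wells (SD, n = 5 each). All 5 lines had the lower share in IWRR, with a mean difference of -47.7 percentage points (exact two-sided sign-flip permutation test, p = 0.0625, adjusted p = 0.312 over the 10 gene pairs), on 7 to 32 reads per well.

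The mouse share of WLS reads averaged 90.3% ± 13.9 in IWRR wells and 93.6% ± 11.9 in IWR wells (SD, n = 5 each) and all 5 lines had the lower share in IWRR, with a mean difference of -3.31 percentage points. The exact sign-flip permutation test gave p = 0.0625, or 0.312 adjusted over the 10 gene pairs. The mouse share of all reads was lower in the same 5 lines. With each species scaled to CPM, which takes that share out, the mean difference in WLS was -1.57 percentage points (exact sign-flip permutation test, adjusted p = 0.312). For WNT5A the mean difference in the unscaled share was -0.05 percentage points (exact sign-flip permutation test, adjusted p = 0.938). In that share 2 lines were higher and 3 lower without IWR-1. Scaled to CPM in the same way, the mouse share of WNT5A was higher without IWR-1 in all 5 lines. The gap was smallest in line 2 (96.0% in IWRR against 95.8% in IWR) and largest in line 4.

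**Figure D4:**
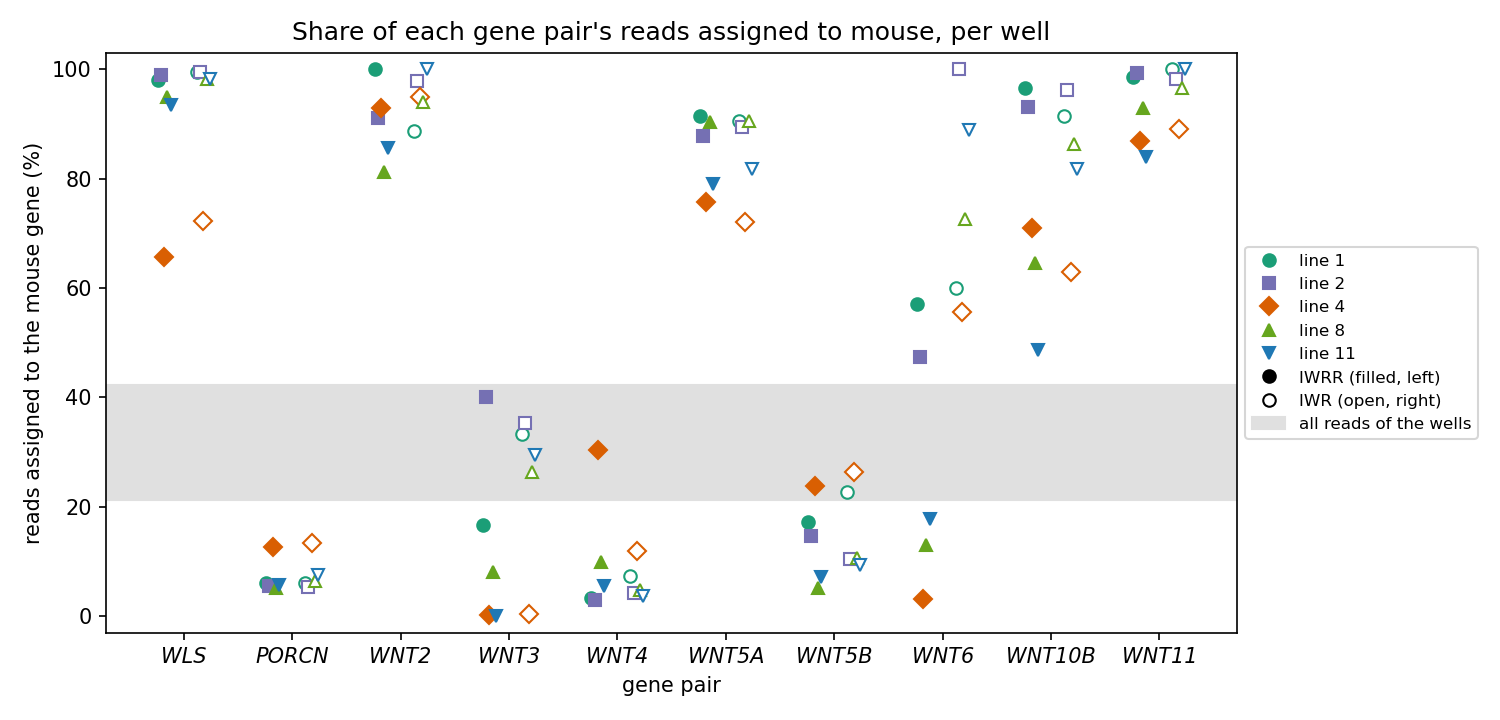
Share of each gene pair's reads assigned to the mouse gene (%, vertical axis) in every well, with IWRR wells filled at left and IWR wells open at right and the range of the mouse share of all reads (21.2% to 42.3%) in grey. WLS, WNT2, WNT5A, WNT10B and WNT11 lie above the grey band, PORCN and most WNT4 and WNT5B points below it, and line 4 is the lowest point for WLS in both media.

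The lines spread widely in their bovine Wnt genes. Line 4 ranked first among the lines, with and without IWR-1, for 3 of the 6 tested members (WLS, WNT3 and WNT5A) and last for 0, against 19.1% and 18.4% of all tested bovine genes. The same tally, made after the values of line 4 were seen, was 7 of 8 for the other tested Wnt ligands, with WNT16 lowest in line 4 in both media (91.2 in IWRR and 95.2 in IWR, against 292 to 521 in the other lines). WNT8A, for example, was at 395 in the IWRR well and 422 in the IWR well of line 4, against 11.5 to 35.0 in the other lines. Line 4 is 1 line, and it stood apart in markers of several cell types. Both tested neural markers, 2 of 3 tested mesoderm markers and 2 of 3 tested trophectoderm markers were also highest in it in both media. The other tested trophectoderm marker, KRT7, was lowest there (68.1 in IWRR and 39.3 in IWR, against 170 to 2090 in the other lines). Of the tested hypoblast and endoderm markers 1 of 3 was highest in line 4, and 5 of 10 stem cell markers were lowest. The part of these cell types in the Wnt levels of line 4 was not tested.

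Genes with a pattern over the 10 wells most like that of bovine WLS were NKX1-2, FGFBP3 and WNT3, with a root mean square difference of 0.65, 0.66 and 0.77 in log2 after each gene's mean was subtracted. NKX1-2, a homeobox gene, stood at 8595 in the IWRR well and 5683 in the IWR well of line 4, against 31.5 to 343 in the other lines. FGFBP3, which encodes an FGF-binding protein, stood at 2232 in the IWRR well and 1154 in the IWR well of line 4, against 19.2 to 182. The likeness also covers differences between lines, so it is not a measure of the response to the medium alone. The mean log2 change of IWRR over IWR was 0.94 for NKX1-2, 0.95 for FGFBP3 and 0.27 for WNT3, against 1.32 for WLS. For PORCN, whose level was even, the nearest were COQ3, PTCD2 and STX16 (0.08 each). For WNT5A, the member ligand with the largest mean in the bovine table, they were ZMIZ1 (0.20), WNT8B (0.23) and EMILIN1 (0.25). Both wells of a line hold the same cells, so the 10 wells are not independent points.

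Other bovine genes of Wnt supply were not called by limma. Of 11 other Wnt ligand genes, 8 were tested and 0 were called by limma, edgeR or DESeq2, with 0 at an unadjusted limma p under 0.05 and a median log2 fold change of 0.00. The smallest adjusted p-values belonged to WNT1 (-0.63 ± 0.31 SE), WNT7B (0.51 ± 0.26), WNT8B (0.17 ± 0.13) and WNT9A (-0.20 ± 0.22), at 0.567 to 0.881.

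Of 20 genes of Wnt secretion, release and inactivation, a list that held acyltransferases included only as relatives of PORCN, 19 matched and were tested. Limma and edgeR called 0 of them and DESeq2 called 1 as higher; 7 had an unadjusted limma p under 0.05, as did 1870 of all 18506 tested bovine genes, and the median log2 fold change was 0.07. The smallest limma adjusted p-values belonged to TRABD2B, a Wnt-cleaving protease (0.38 ± 0.10 SE, adjusted p = 0.168), the glypican GPC4 (-0.23 ± 0.08, adjusted p = 0.288), the fatty acid desaturase SCD (0.27 ± 0.10, adjusted p = 0.337) and the acyltransferase MBOAT2 (0.14 ± 0.05, adjusted p = 0.363). MBOAT2 was listed only as a relative of PORCN, and such relatives were part of the 7. VPS35, a retromer subunit that recycles WLS, was at -0.02 ± 0.06 SE (limma adjusted p = 0.969).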

How the data were processed

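Poly(A) RNA of 10 co-culture wells was sequenced from NEBNext Ultra libraries, per the labels' protocols. Alignment was to ARS-UCD1.3 for cattle and GRCm39 for mouse, per the labels. Tools listed in the submitters' processing notes, with no role, are featureCounts 1.5.0-p3, StringTie 1.3.3b, HISAT2 2.0.5 and fastp. The authors' deposited values are a scaled signal for each gene in each library, in a bovine and a mouse table; no label records the scaling. In each library 100% of positive values were whole multiples of 1 step, at a tolerance of 0.01 reads, which gave whole reads. Left out were 2 mouse columns that no sample label names. Of 27590 bovine rows 24660 matched a symbol in RefSeq ARS-UCD2.0, which is not the build of the files, so no coordinates are given; 313 rows without a gene ID stayed in the fits. Mouse genes were named for the 10 IDs only, and 0 matched a name in the reference table.

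The test was limma 3.58.1 (R 4.3.3) on log2(value + 1), with a mean-variance trend and the line as a block, for genes that reached 10 in 5 or more libraries, with Benjamini-Hochberg adjustment over all tested genes, called under 0.05. Fold changes on this scale understate those of low genes. Limma moderates the variance across genes, so its p-values and SEs draw on other genes too. The numbers pair wells because both wells of a number hold the same stem cell line, per the labels; deviations from group means correlated within lines at 0.617 to 0.883 (bovine) and 0.488 to 0.725 (mouse). Alternatives were edgeR 4.0.16 and DESeq2 1.42.0 on recovered reads, TMM scaling, other pseudocounts and filters, no block, a mouse-share covariate and leaving out each line. Genes were named as the 10 members and the nearest 3 in pattern to WLS, PORCN and the most abundant member ligand. Those with the 4 smallest adjusted p-values per list were named too. WNT8A, WNT16 and VPS35 were added after their values were seen. So were the markers POU5F1, POSTN, COL1A1, COL1A2, PDGFRB, KRT7, NANOG and DNMT3B. Members and lists were chosen with earlier results of these data known. No protein or promoter sequence was used here.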

Additional observations from a re-analysis of the deposited data

Results flagged for a closer look

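A well was singled out where it lay far from the other 4 wells of its medium, as the gap to its nearest neighbour over the range of the group, above 0.71. Of 60 groups, 14 had such a well, 13 of them in line 4. The limit is passed about 1 in 20 times by independent, normally distributed values. The groups here share lines and reads and their values were not logged, so that rate is no measure of chance for them. Line 4 was the highest well for bovine WLS (0.945 in IWRR and 0.98 in IWR), bovine WNT3 (0.97 in IWRR and 0.988 in IWR), and, in IWR wells, bovine WNT5A (0.80), WNT10B (0.835) and WNT11 (0.934). It had the lowest mouse share of WLS reads (0.833 in IWRR and 0.955 in IWR) and of WNT3 reads in IWR wells (0.743), and the highest mouse share of PORCN reads (0.862 in IWRR and 0.733 in IWR) and of WNT4 reads in IWRR wells (0.746). The remaining one was bovine WNT4 in IWR wells, highest in line 11 (0.822).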

How the results depend on the processing

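The 2 pseudocounts, TMM scaling, edgeR and the stricter filter changed no call and no sign among the results they gave. Without the replicate block, on the same log2 fold changes, WLS (1.32, adjusted p = 1.00) and mouse Wnt5a (0.30, adjusted p = 1.00) lost their calls, and 0 bovine and 0 mouse genes were called (105 and 584 at an unadjusted limma p under 0.05; the range of adjusted p for WLS over its alternatives was 0.000302 to 1.00 and for Wnt5a 0.00334 to 1.00); the block is the pairing of wells within lines. With the mouse-share covariate 0 bovine and 0 mouse genes were called (456 and 687 at an unadjusted p under 0.05), WLS was at 0.77 and Wnt5a at 0.17, and uncalled signs turned for Porcn (-0.0041), WNT3 (-0.16) and bovine WNT5A (-0.15). Other uncalled members moved by over 1.5 times with that covariate, among them bovine WNT4 (-0.00965), Wnt10b (-0.0227), Wnt5b (0.00971) and Wls (0.0977). The mouse share was lower in IWRR in every line, so the covariate fit cannot cleanly separate it from the medium. With no filter, 53 bovine and 329 mouse genes were called, and WLS (1.32, adjusted p = 0.0565) and Wnt5a (0.30, adjusted p = 0.085) were not, with more genes tested. DESeq2 called 420 bovine genes and called Wnt2 (-1.01). CPM within each table set the mouse share at 16.2% for PORCN, 35.4% for WNT3, 16.8% for WNT4, 92.1% for WNT5A and 29.2% for WNT5B and turned its change for PORCN (1.08) and WNT5A (1.25 percentage points). Shares per kilobase were not run, because no transcript lengths were used here.

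With 1 line left out, 31 to 184 bovine genes (against 176) and 269 to 936 mouse genes (against 665) were called. Log2 fold changes ranged from 1.18 to 1.54 for WLS, from -0.0869 to 0.0238 for PORCN, from -0.000919 to 0.74 for WNT3, from 0.26 to 0.35 for Wnt5a, from -1.17 to -0.74 for Wnt2, from -0.18 to 0.61 for Wnt4, from -0.0863 to 0.30 for Wnt5b and from -0.0599 to 0.16 for Wnt11. They kept their sign for bovine WNT5A (0.0209 to 0.13), bovine WNT4 (-0.55 to -0.26) and Wnt10b (-0.40 to -0.12), as did the change in the mouse share of WNT10B (-13.2 to -2.88 percentage points). The change in the mouse share of WNT5A ranged from -0.96 to 0.63 percentage points and the difference between species for WNT5B from -0.33 to 0.10. The cause of these shifts was not tested. Counts of a few reads limit WNT2, WNT6, WNT10B and WNT11 in the bovine table and Wnt3 and Wnt6 in the mouse table.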
